A study of Mus musculus with 3 samples.

Results

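Neurotensin cells, or N cells, are the enteroendocrine cells (EECs) of the intestinal epithelium that transcribe Nts, the gene of the gut peptides neurotensin and neuromedin N. They were chosen by measured values, as barcodes with 800 to 50000 UMIs (counted RNA molecules), at most 40% of UMIs from mitochondrial genes (mt-), more than 53.6 Nts UMIs per 10000 UMIs, and at least 1 UMI of Neurod1 or Chga, which mark EECs in general. The rule found 68 N cells, 2 duodenal, 9 jejunal and 57 ileal, among 16774 barcodes within the limits and 27235 barcodes in all. The level of Nts, Neurod1 and Chga in these cells is therefore part of their definition and was given no test.

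The cells came from male C57BL/6N wild type mice of 12 weeks, with no transgene and no treatment named in the labels. The intestines of 3 mice were divided into duodenum, jejunum and ileum, the epithelial cells and intraepithelial immune cells of each segment were pooled over the mice, sorted as live single cells by exclusion of propidium iodide, and made into 1 droplet library per segment. A difference between segments therefore has no replicate, and mice cannot be told apart within a library. N cells were set against the other barcodes with a UMI of Neurod1, of which there were 175 (59 duodenal, 26 jejunal and 90 ileal), and against the 46 of these with more than 11.2 Tph1 UMIs per 10000, the Tph1-high barcodes (24, 6 and 16), since Tph1 encodes the rate-limiting enzyme of serotonin synthesis in enterochromaffin cells.

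As background, EECs arise from crypt stem cells through the transcription factors Neurog3 and Neurod1, store peptide hormones in dense-core granules and release them at their basal side when luminal nutrients bind their receptors. N cells lie mostly in the distal small intestine and release neurotensin after a fatty meal, which slows gut motility and promotes fat absorption. EECs can switch hormones while they move from crypt to villus under a gradient of BMP signalling, and neurotensin, secretin and peptide YY are known as products of the villus. The precursor made from Nts is cut by prohormone convertases at pairs of basic residues. The stretch of Nts that codes for both peptides is shown because it is the transcript by which these cells were chosen. It lies at chr10:102482349-102482423 (GRCm38, minus strand), in exon 4 of the gene (ENSMUSG00000019890, chr10:102481756-102490486, GENCODE M21), and is 75 of 507 coding bases. Capitals mark the 3 codon pairs for cleavage sites, between which 6 codons give neuromedin N and 13 codons give neurotensin.
Nts coding stretch: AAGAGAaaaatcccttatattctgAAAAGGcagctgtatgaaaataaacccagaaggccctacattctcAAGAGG

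The promoters of Nts and Sct are shown because both transcripts were abundant in nearly every N cell, and Neurod1 binds E-boxes. Both are RefSeq windows of 180 bases on GRCm38, from 250 to 71 bases before the annotated start, at chr10:102490489-102490668 and chr7:141279204-141279383, both read on the minus strand. Capitals mark CAGNTG, a form of the E-box, on either strand. It occurred 1 time before Nts and 3 times before Sct, and at least once in 35.1% of 32851 mouse promoters over the same window, searched on both strands. TGANTCA, the letters of an AP-1 motif, occurred 1 time before Nts, 0 times before Sct and in 4.93% of promoters, and no base was shared with an E-box. These matches are letters only and no binding was measured.
Nts promoter: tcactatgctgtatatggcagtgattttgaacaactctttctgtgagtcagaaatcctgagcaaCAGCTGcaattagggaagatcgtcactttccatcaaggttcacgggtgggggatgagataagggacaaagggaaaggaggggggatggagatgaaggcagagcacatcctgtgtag
Sct promoter: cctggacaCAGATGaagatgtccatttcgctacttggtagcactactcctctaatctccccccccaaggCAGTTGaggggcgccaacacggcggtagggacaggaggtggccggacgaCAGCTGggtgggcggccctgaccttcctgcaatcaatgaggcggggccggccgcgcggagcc

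All levels below are UMIs per 10000 UMIs of the barcode or of the summed class. UMIs were counted at the 3′ end of transcripts and were not scaled by gene length. Intervals are exact 95% Poisson or binomial intervals and cover counting error only. The 3 libraries held 78074516 to 98518847 UMIs, and the N cells had a median of 4845.5 UMIs each (827 to 41411), below the 9357 of the other Neurod1-positive barcodes. Libraries shared 4 to 12 barcode names among kept barcodes, and none of these was an N cell.

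The Nts levels next to the threshold of 53.6 are given as a description, since Nts chose the cells. In the ileum, the lowest Nts level inside the rule was 96.7 and the highest outside it, among barcodes with Neurod1 or Chga, was 29.5. In the jejunum these values were 58.8 and 38.6, and in the duodenum 285 and 0.628. Following in part from the rule, N cells held 98.5% of all Nts UMIs of the kept duodenal barcodes and 94.2% of those of the jejunal and of the ileal ones. Of 1158 ileal barcodes with T cell markers, 1 passed the Nts threshold.

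**Figure D1:**
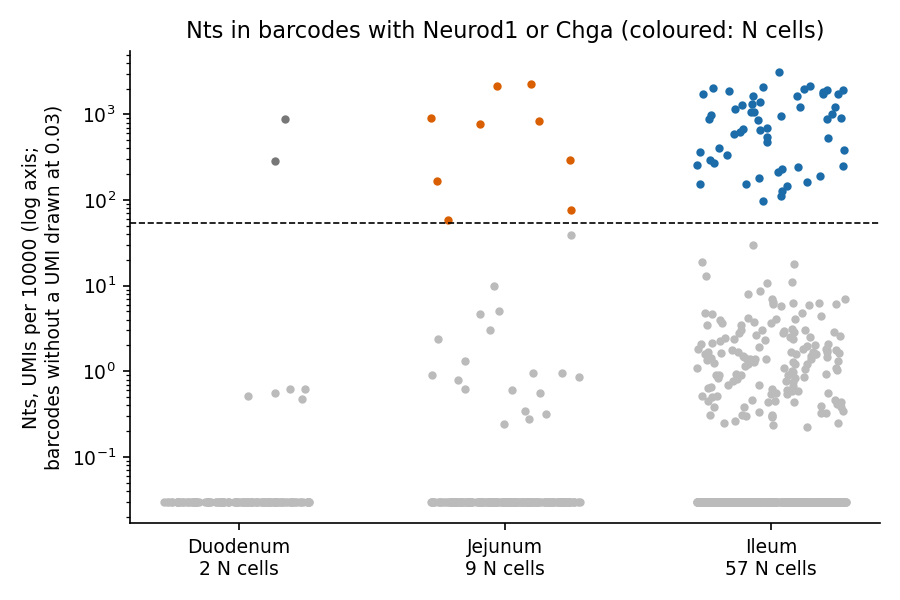
Nts level (UMIs per 10000, log axis) of every kept barcode with a UMI of Neurod1 or Chga, by library, with N cells coloured, all others in light grey and the threshold as a dashed line. The 57 ileal N cells start at 96.7, above the highest other ileal barcode at 29.5, and most other barcodes have no Nts UMI.

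That the cells are endocrine was checked on Sct, which encodes secretin and was not part of the rule. The paper describes Sct as high in late EECs other than D cells, so its presence cannot set N cells apart from other EECs. Its levels in the comparison classes are given further below. Sct was detected in 68 of 68 N cells and exceeded the Nts threshold of 53.6 in 62 of them, with a median of 471 (21.7 to 2055). In ileal T cell barcodes, which should lack Sct, the summed level was 1.18. Neurod1 had a median of 12.0 and no UMI in 2 N cells, and Chga, the granule protein chromogranin A, a median of 10.3 and no UMI in 7. The summed level of 9 T cell markers was 2.09 in N cells, with UMIs in 21 of 68, against 182 in T cell barcodes. In 1 N cell it was 181, above the T cell barcodes' median of 129. Tuft cell markers had UMIs in 9 of 68 N cells and summed to 1.76, against 0.269 in the other Neurod1-positive barcodes, with 1 N cell at 110. Stem and cycling markers had UMIs in 11 N cells.

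RNA of enterocytes was present in every N cell. The sum of 12 enterocyte markers had a median of 51.7 per N cell (9.40 to 1236), of 96.8 in the other Neurod1-positive barcodes, of 28.2 in T cell barcodes and of 1293 in enterocyte barcodes. In 7 N cells it was 200 or more, 3 of them jejunal and 4 ileal. Of the 175 other Neurod1-positive barcodes, 59 were at 200 or more. Because of this imbalance, the comparisons below are also given for barcodes with UMIs of both Neurod1 and Chga in both classes, which left 59 N cells and 100 others. The part of enterocyte RNA in any result was not tested beyond these values.

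N cells made up a larger share of barcodes with Neurod1 or Chga in the ileal library than in the duodenal one, as a description of single libraries. Not every such barcode need be an EEC, since 19 of 1158 ileal T cell barcodes also had a Chga UMI. Kept barcodes had median UMIs of 12451 in the duodenum, of 11732.5 in the jejunum and of 5555 in the ileum, and a barcode of more UMIs passes the requirement of 1 Neurod1 or Chga UMI more easily. They were 2 of 124 duodenal barcodes with Neurod1 or Chga (1.61%, exact binomial interval 0.196 to 5.70), 9 of 199 in the jejunum (4.52%, 2.09 to 8.41) and 57 of 559 in the ileum (10.2%, 7.81 to 13.0). The intervals of duodenum and ileum were apart, and the jejunal interval overlapped both. At a limit of 20% mt- UMIs the duodenal share was 3.39% (0.413 to 11.7) and overlapped the ileal one of 11.1% (8.36 to 14.4). The order was the same among barcodes with both genes (4.26%, 40.9% and 53.3%) and after each barcode was thinned to 800 UMIs (4.08%, 13.8% and 30.1%), though the size of the shares depended on these choices.

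The hormones that accompanied Nts differed from cell to cell. Cck, the gene of cholecystokinin, exceeded 53.6 in 7 N cells, Gcg, the gene of glucagon-like peptides, passed the threshold used for L cells in 3, Gip in 2 and Tph1 in 2, and Sst, the gene of somatostatin, in 0. A total of 56 N cells passed none of these 5 thresholds. Pyy, the gene of peptide YY, was high in some cells and missing in others, above 53.6 in 23 N cells and with no UMI in 34. Sct was above Nts in 22 N cells.

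Both duodenal N cells were rich in Cck. The first had Nts at 285, Sct at 864 and Cck at 1063, and the second had Nts at 887, Sct at 1406 and Cck at 1970. Neither had a Pyy UMI. Cck was thus the most abundant of these transcripts in both of them.

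The 9 jejunal N cells fell into kinds that were far apart. In order of rising Nts, their Nts levels were 58.8, 76.1, 166, 292, 769, 832, 914, 2167 and 2289. In the same order, Sct was 1115, 21.7, 269, 35.6, 734, 845, 559, 1961 and 367. The cells at 76.1 and 292 for Nts, low in Sct, had enterocyte marker sums of 998 and 1236. The cell of lowest Nts had Cck at 1343, Pyy at 151 and Gcg at 84.8, so that Nts was a minor hormone in it. The cell at 2167 for Nts had Pyy at 776 and Cck at 154, and 5 jejunal cells had no Pyy UMI.

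In the 57 ileal N cells Nts ranged from 96.7 to 3105 (median 849), Sct from 36.3 to 2055 (median 465), Pyy from 0 to 1081 (median 4.10, with 27 at 0) and Cck from 0 to 346 (36 at 0). Cells of high Pyy tended to be those of high Sct and not those of high Nts. The Spearman correlation across these cells, given as a description since they share 1 library, was 0.64 for Sct and Pyy, -0.27 for Nts and Pyy, and 0.18 for Nts and Sct. Pyy also correlated with the UMIs of the barcode (0.46), and among the 29 deeper ileal cells the value for Sct and Pyy was 0.82. All 3 hormones are shares of the same total in each barcode.

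**Figure D2:**
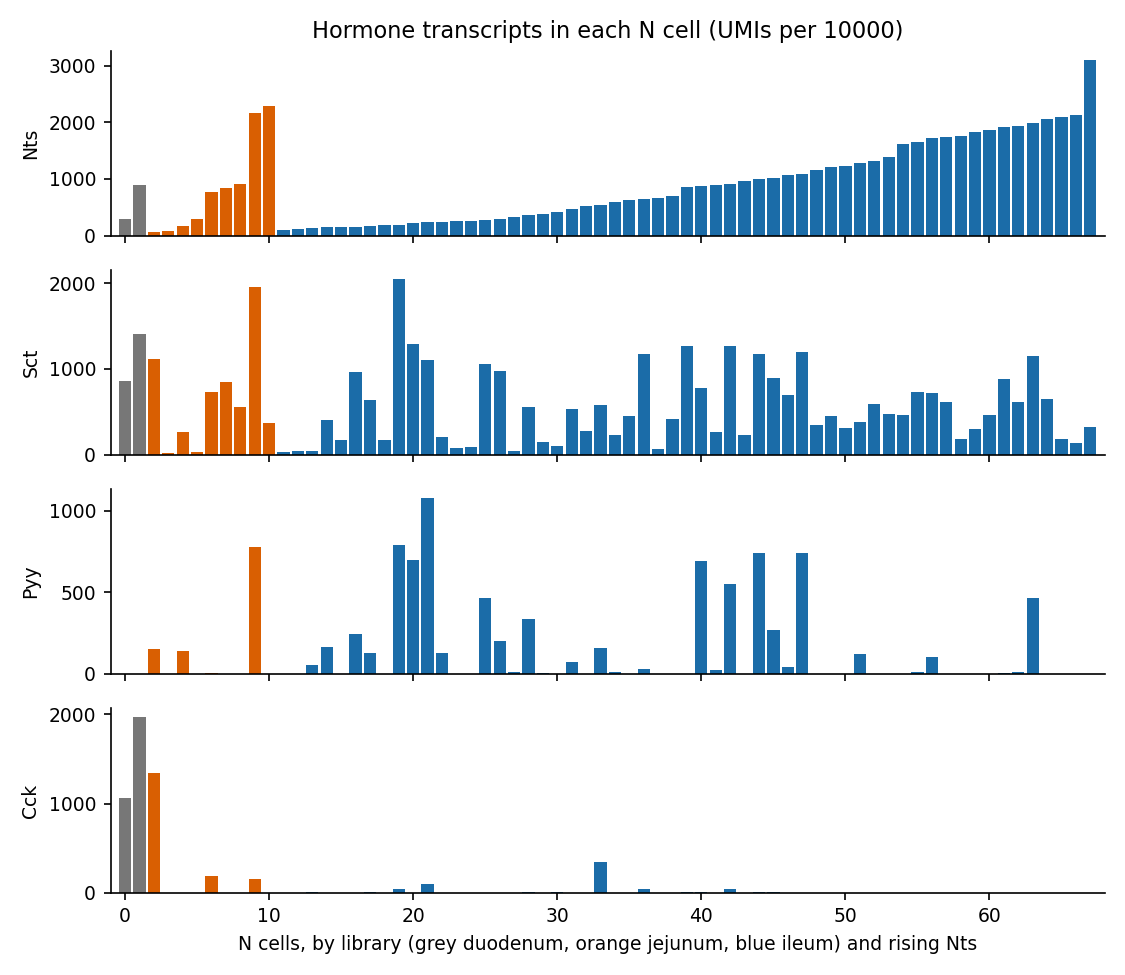
Level of Nts, Sct, Pyy and Cck (UMIs per 10000, linear axes from 0) in each of the 68 N cells, 1 bar per cell, ordered by library (grey duodenum, orange jejunum, blue ileum) and by rising Nts. Cck is highest in the 2 duodenal cells and the jejunal cell of lowest Nts, and Pyy is high in 23 cells scattered over the range of Nts and absent in 34.

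The question of the main comparison was which transcripts set N cells apart from other EECs. UMIs were summed per class and library in the jejunum and ileum, and N cells were compared with the other Neurod1-positive barcodes within library. By the quasi-likelihood test of edgeR, adjusted after Benjamini and Hochberg, 0 of 5660 genes passed an adjusted p of 0.05 (0%). At an unadjusted p under 0.05 there were 606 genes, 303 higher and 303 lower in N cells, and DESeq2 called 22. The count depended on the settings, with 440 calls when the Nts threshold was doubled, 329 without the filter on low genes and 63 without the 10% of barcodes richest in enterocyte UMIs. The fit had 1 residual degree of freedom. With the library as a block, this is the change of the ratio between the classes from jejunum to ileum of the same pooled mice. The p-values therefore rest on a spread in which segment differences and noise cannot be told apart, and not on replicates. The SE given with a log2 fold change was computed back from the test and is not a standard error that edgeR reports. It is the absolute log2 fold change divided by the square root of the F statistic. Among barcodes with both Neurod1 and Chga, edgeR called 3 of 4580 genes (0.0655%). Besides the test, a size rule counted genes at least 2-fold higher or lower in N cells in both libraries, which 2.86% and 2.39% of all genes met, so that a list can be read against these shares.

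The 3 genes called with both Neurod1 and Chga required were Rassf9 and Adgrd1, higher in N cells, and Tac1, lower. Rassf9 encodes a protein of recycling endosomes. In the jejunum it had 8 UMIs in 9 N cells (0.560 per 10000) and 0 in 26 other barcodes, and in the ileum 140 UMIs in 57 N cells (3.12) and 1 in 90 others (0.0110). A UMI of Rassf9 was present in 39 of 68 N cells and in 1 of 175 others, and no duodenal barcode of either class had one. In the main fit its adjusted p by edgeR was 0.116, the lowest of all genes, and with both genes required it was 0.0247 (log2 fold change 7.29, SE 0.81).

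Adgrd1 encodes an adhesion G protein-coupled receptor. Its level was 3.71 in jejunal and 5.20 in ileal N cells against 0.377 and 0.0879 in the others, and it had UMIs in 47 of 68 N cells and 16 of 175 others. The log2 fold change was 4.65 (SE 0.69, adjusted p = 0.226 by edgeR), and with both genes required 6.99 (SE 0.76, adjusted p = 0.0247). Tac1, the gene of substance P and a product of enterochromaffin cells, had 0 UMIs in 68 N cells, which allows a level of up to 0.0467, and 1.64 in the others over all libraries. Its adjusted p by edgeR was 0.226 in the main fit and 0.0491 with both genes required. Over 15 alternatives to the main fit, Rassf9 passed in 11 (adjusted p 5.68e-22 to 0.425) and Adgrd1 in 9 (8.37e-19 to 0.425), and Tac1 passed in 7 of the 13 that tested it (3.04e-11 to 0.561).

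Of the 10 hormone genes tested, 3 were at least 2-fold higher in N cells in both libraries (Sct, Pyy and Cck) and 4 at least 2-fold lower (Gip, Sst, Iapp and Tac1), and their median log2 fold change was -0.86 against -0.05 over all genes. With both genes required, Pyy and Sct met the rule as higher and Cck did not. Sct was 708 in jejunal N cells against 163 in the others, and 740 in ileal N cells against 50.0. This gave a log2 fold change of 3.10 (SE 0.57, adjusted p = 0.232 by edgeR). Pyy was 165 in jejunal N cells against 13.6, and 303 in ileal N cells against 49.1 (log2 fold change 3.20, SE 0.42, adjusted p = 0.226 by edgeR). None of these differences passed in the main fit. With both genes required, which keeps Pyy and Sct higher by 2.26 and 2.23 on the log2 scale, their adjusted p by edgeR was 1.00 (ranges over 15 alternatives 1.96e-11 to 1.00 for Sct and 5.95e-12 to 1.00 for Pyy).

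Cck was 296 against 7.07 in jejunal barcodes and 33.8 against 14.9 in ileal ones (log2 fold change 3.37, SE 1.16, adjusted p = 0.399 by edgeR). Its ileal log2 ratio was 0.68 with both genes required, and 3404 of its 4226 jejunal UMIs came from 1 cell. Gip, the gene of the K cell incretin, was 0.140 in jejunal N cells against 610, and 2.68 in ileal N cells against 39.1. Sst was 0.0700 against 205 and 0.0892 against 0.704. The adjusted p by edgeR was 0.391 for Gip and 0.360 for Sst. Iapp, the gene of amylin, had 0 UMIs in jejunal N cells against a level of 12.3 in the others, and was 0.0223 in ileal N cells against 0.352. Gip and Sst mark other endocrine classes that the comparator holds, and the summed Sst level of N cells was near 0 in both libraries.

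Gcg went in opposite directions. It was 22.7 in jejunal N cells, where 2 cells held 215 and 109 of 324 UMIs, against 0.0538 in the others, and 1.09 in ileal N cells against 124 in the others, so that the combined log2 fold change of 0.05 had an SE of 9.64. Ghrl, the gene of ghrelin, was 56.1 against 44.7 in jejunal barcodes and 0.201 against 0.352 in ileal ones. No difference was resolved for Ghrl (log2 fold change -0.04, SE 0.40), and its sign changed with the settings.

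**Figure D3:**
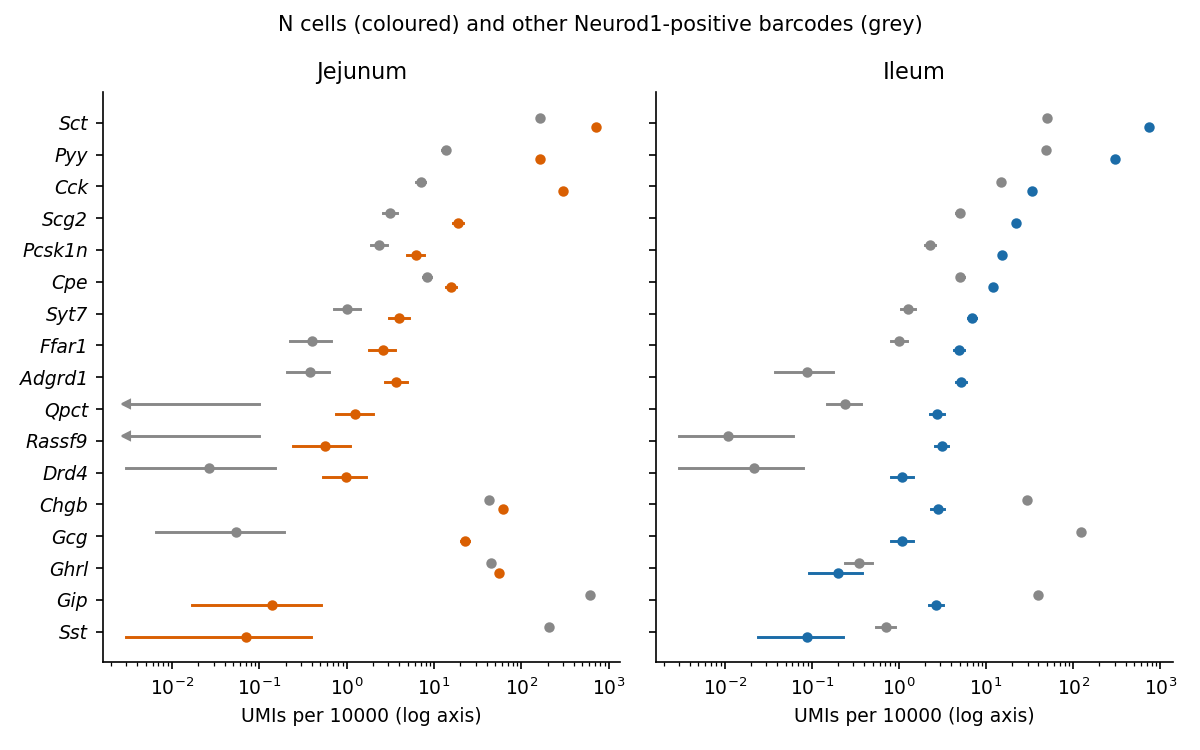
Level (UMIs per 10000, log axis) of 17 genes in the summed N cells (orange, jejunum, and blue, ileum) and the summed other Neurod1-positive barcodes (grey), with 95% Poisson intervals that cover counting error only. Arrowheads stand for 0 UMIs and end at the upper bound. Sct, Pyy, Scg2, Ffar1, Adgrd1 and Rassf9 are higher in N cells in both libraries, Gip and Sst are lower in both, and Gcg and Chgb differ in direction.

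Genes of prohormone processing and of the granule were counted next. In the main comparison 8 of 16 tested were at least 2-fold higher in N cells in both libraries and 0 lower, with a median log2 fold change of 1.17. They were Pcsk1, the convertase that cuts many gut prohormones, its inhibitor Pcsk1n, Qpct, which forms the amino-terminal pyroglutamate found in neurotensin, the granins Scg2 and Vgf, Ptprn, Resp18 and Scgn, a calcium sensor. With both genes required, 2 of these were left (Qpct and Scg2, against 1.64% of all genes higher and 1.81% lower), and the median was 0.37. The other 6 no longer met the rule when barcodes without Chga were left out.

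Scg2, a granin, was 18.8 in jejunal N cells against 3.17 in the others and 22.1 against 5.00 in the ileum, with UMIs in 60 of 68 N cells (log2 fold change 2.44, SE 0.34, adjusted p = 0.226 by edgeR). Qpct had 18 UMIs in the jejunal N cells (1.26) and 0 in the others, and was 2.77 against 0.242 in the ileum. In the duodenum it was 3.73 in the 2 N cells against 0.194. A UMI of Qpct was present in 33 of 68 N cells. Pcsk1n was 6.16 against 2.37 in jejunal barcodes and 15.3 against 2.29 in ileal ones, and Cpe, which trims basic residues after the convertase, 15.7 against 8.34 and 12.1 against 5.06. Pcsk2, the other main convertase, had 0 UMIs in N cells. Its limit was 0.0467, and Pcsk2 was 0.208 in the others.

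Chgb, chromogranin B, differed in direction between the 2 libraries. It was 2.79 in ileal N cells against 29.5 in the others, with 0 UMIs in 22 of 57. In the jejunum it was 62.0 against 42.7, and 744 of the 886 jejunal UMIs came from the cell of lowest Nts and high Cck. With that cell aside, jejunal levels per cell were 0.757 to 27.9. The log2 fold change was -1.32 (SE 1.06, adjusted p = 0.715 by edgeR).

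Other genes far higher in the N cell sums were Prrx2, a homeobox gene, Drd4, a dopamine receptor, and Uchl1, a deubiquitinase of neuroendocrine cells, with adjusted p = 0.157 by edgeR for each. Prrx2 had UMIs in 41 N cells and 11 others and a level of 1.53 against 0.0649 over all libraries. Uchl1 had UMIs in 27 N cells and 5 others. Drd4 had UMIs in 15 N cells, and 12 of its 14 jejunal UMIs were in 1 cell. Wfdc2 was seen in 9 N cells and Crybb1 in 18. Lower in N cells were Tpbg and Slc38a11, each with 1 UMI in all N cells (0.0156) against 1.16 and 0.977 in the others, Scarb1, a lipoprotein receptor (0.0156 against 0.561), Ces1f (0 against 0.398), Pdk4 (0.0311 against 0.482) and Nnat. Of the Nnat UMIs of the jejunal others, 99.5% came from 1 barcode.

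**Figure D4:**
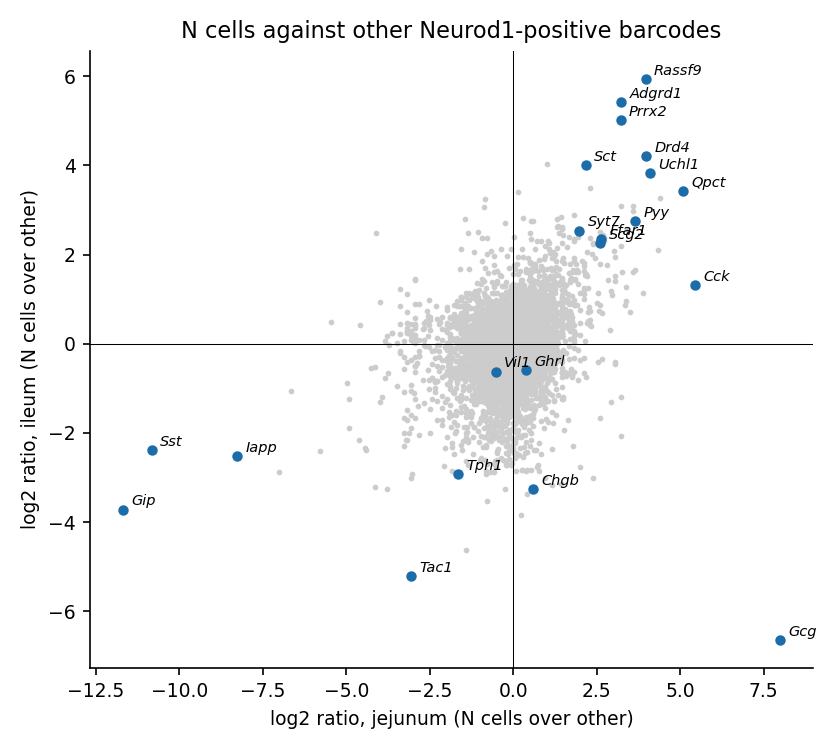
Log2 ratio of N cells to other Neurod1-positive barcodes in the jejunum (horizontal) and ileum (vertical), 1 point per tested gene, with named genes in blue. Rassf9, Adgrd1, Prrx2, Drd4, Uchl1 and Qpct lie far to the upper right, Gip, Sst, Iapp and Tac1 to the lower left, and Gcg at the lower right. The ratios carry a prior count of 2, which pulls low genes towards 0.

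Of the exocytosis genes, Syt7, a calcium sensor of granule fusion, was 3.99 in jejunal N cells against 1.02, and 6.92 in ileal N cells against 1.26 (log2 fold change 2.32, SE 0.34, adjusted p = 0.226 by edgeR). Of 22 EEC transcription factors tested, 2 were higher by the size rule (Peg3 and Prox1) and 0 lower. With both genes required neither met it, Onecut3 was higher and Egr3 lower, and the median was -0.14. Peg3 was 5.04 against 1.80 and 6.38 against 1.96. Etv1 was 4.20 against 0.699 and 3.61 against 2.34, and Isl1, a LIM homeobox factor, 0.839 against 3.15 and 3.21 against 2.35. No transcription factor passed the test.

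Among nutrient and hormone receptors, 2 of 10 tested met the size rule, both higher in N cells. Of 11 tested with both genes required, Ffar1 was higher and Cnr1 lower, and Sstr5 did not meet the rule. Ffar1, a receptor for long-chain fatty acids, was 2.59 in jejunal N cells against 0.403, and 4.91 in ileal N cells against 1.01, with UMIs in 43 of 68 N cells (log2 fold change 2.54, SE 0.33, adjusted p = 0.226 by edgeR). Its adjusted p by edgeR over 15 alternatives was 1.01e-06 to 0.642, and it passed in 6. Sstr5, a somatostatin receptor, was 0.420 against 0.108 and 0.803 against 0.220. Receptors for bile acids and other lipids were sparse. Gpbar1 had UMIs in 12 N cells, Gpr119 in 15, Ffar4 in 15 and Ffar3 in 24. Ntsr1, a neurotensin receptor, had 0 UMIs in N cells and in the other Neurod1-positive barcodes.

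Lists tied to position on the villus were counted in the same way. Of 8 BMP response genes tested, 0 met the size rule, with a median of 0.83. Id1, Id2 and Id3, direct targets of BMP signalling, were 9.95, 8.72 and 10.4 in ileal N cells against 3.50, 2.17 and 2.92 in the others, and 2.31, 2.38 and 3.99 in jejunal N cells against 3.42, 2.58 and 3.42. Of 11 villus tip genes, 3 were lower (Ada, Pmp22 and Slc28a2) and 0 higher, and the comparator also had more enterocyte RNA. Of these, 0 of 11 were lower with both genes required, and the median was 0.50. Of 20 genes of the endoplasmic reticulum secretory pathway, 0 met the rule (median -0.16), and of 7 serotonin genes 2 were lower (Tph1 and Gstt1). Of the lists of other cell types, 1 of 12 enterocyte markers was lower (median -1.27, and 0.49 with both genes required) and 2 of 7 goblet markers were higher (Agr2 and Tff3, median of the list -0.22). Among barcodes with both genes, 0 of 7 goblet markers were higher and the median was -0.42. The only tuft marker tested, Avil, was higher, with 4 and 14 UMIs in jejunal and ileal N cells against 0 and 5.

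Against the Tph1-high barcodes, which share the N cell sums with the comparison above, the quasi-likelihood test of edgeR called 0 of 2063 genes (0%). An unadjusted p under 0.05 was found for 235 genes, and DESeq2 called 22. With both Neurod1 and Chga required in both classes edgeR called 47 of 2060 genes (2.28%), 18 higher and 29 lower in N cells. This requirement left the tested Tph1-high sums and the jejunal N cells unchanged. It only lowered the ileal N cells from 57 to 48, and their UMIs from 448228 to 424862. The comparator is small here, with 6 jejunal barcodes that held 35241 UMIs. The 47 calls fell to 1 of 2060 without TMM and to 0 of 1523 without the 10% richest in enterocyte UMIs, both chosen after seeing the data. By the size rule 4.22% of genes were higher and 5.14% lower, and with both genes required 4.27% and 5.39%.

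The separation from Tph1-high barcodes was wide for hormones, where 4 of 5 tested genes were higher by the size rule (Sct, Pyy, Cck and Gcg) and Tac1 was lower. Pyy had 0 UMIs in jejunal Tph1-high barcodes and was 0.206 in the ileal ones, against 165 and 303 in N cells (adjusted p = 0.0966 by edgeR, and 0.00355 with both genes required, with 1.85e-17 to 0.0966 over 12 alternatives). Sct was 32.9 and 46.0 in Tph1-high barcodes against 708 and 740 (log2 fold change 4.52, SE 0.83, adjusted p = 0.143 by edgeR, and 0.0171 with both genes required, with 4.84e-11 to 0.143 over 12 alternatives). Cck was 0.284 and 0.206 against 296 and 33.8. Tac1 was 2.84 and 14.3 against 0 and 0. Chgb was 122 and 186 in Tph1-high barcodes against 62.0 and 2.79 in N cells (adjusted p = 0.489 by edgeR).

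In the granule list, 4 of 15 genes were higher in N cells than in Tph1-high barcodes (Cpe, Qpct, Scg2 and Scgn) and 0 lower. Scg2 had 0 UMIs in the jejunal and ileal Tph1-high barcodes, which allows 0.851 and 0.309, against 18.8 and 22.1. Of 15 transcription factors, 4 were higher (Etv1, Isl1, Pax6 and St18) and 3 lower (Egr3, Foxa1 and Lmx1a). Etv1 had 0 UMIs in the Tph1-high barcodes of both libraries. Lmx1a, known for serotonin fate, had 0 UMIs in N cells against 3.12 and 1.65. Ffar1 had 0 UMIs in jejunal and ileal Tph1-high barcodes, and Ffar2, a receptor for short-chain fatty acids, was 0.210 and 0.245 in N cells against 3.12 and 2.57. With both genes required, Pyy, Cck, Scg2, Sct, Etv1, Isl1, Ffar1, Scgn, Qpct and Adgrd1 passed as higher in N cells and Tac1, Lmx1a, Slc38a11, Tpbg, Trpm2, Ffar2, Slc18a1 and Egr3 as lower, among the 47 calls that fell to 0 without the barcodes richest in enterocyte UMIs.

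Vil1 encodes villin, an actin-binding protein of the brush border and the gene the study used for targeting (chr1:74409376-74435559, plus strand). Its level was 3.64 in N cells (234 UMIs, interval 3.19 to 4.14), 5.29 in the other Neurod1-positive barcodes, 3.90 in Tph1-high barcodes, 2.52 in T cell barcodes and 13.7 in enterocyte barcodes. Per cell it had a median of 2.92 and no UMI in 15 of 68 N cells. When the 10% of barcodes with most enterocyte markers were left out of each class, Vil1 was 3.10 in N cells and 0.751 in T cell barcodes, the class that should lack it. It was then 4.56 in the other Neurod1-positive barcodes and 3.42 in Tph1-high ones. By library, N cells were above Tph1-high barcodes in jejunum (3.47 against 2.81) and ileum (3.16 against 1.54). In the duodenum 1 N cell was left (0.364 against 3.87). The paper found Vil1 highest in EC and N cells among its EEC subtypes, which were not compared one by one here. The sign of the difference between N cells and other EECs depended on the comparator. It was lower by a log2 fold change of -0.58 (SE 0.30, adjusted p = 0.564 by edgeR) against all other Neurod1-positive barcodes, and higher by 0.79 (adjusted p = 1.00 by edgeR) with both genes required. The adjusted p over 15 alternatives was 0.152 to 1.00.

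The 9 jejunal and 57 ileal N cells were then compared with each other, without a test because each segment had 1 library. Of 265 genes at 5 or more per 10000 in either sum, 37 were at least 3-fold higher in the jejunum with separate Poisson intervals (14%) and 19 in the ileum (7.17%). The jejunal excess rested largely on 1 cell. Without the jejunal cell of most UMIs, which had an enterocyte marker sum of 998, 11 genes were left as higher in the jejunum, and 17 as higher in ileal cells. Those 11 were the hormones Cck, Gcg and Ghrl, Chgb, Rbp4, Cst3 and the enterocyte products Apoa4, Apoc3, Prap1, Rbp2 and Sis. The jejunal cell with a marker sum of 1236, still included, held 826 of 901 Apoa4, 179 of 219 Rbp2, 39 of 72 Apoc3 and 35 of 52 Prap1 UMIs.

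Ghrl was 56.1 in jejunal N cells and 0.201 in ileal ones, where 3 jejunal cells held 427, 309 and 62 of its 802 UMIs. Among the other Neurod1-positive barcodes Ghrl was also higher in the jejunum (44.7 and 0.352). Cck was 296 in jejunal and 33.8 in ileal N cells, while in the others it was 7.07 and 14.9. In the ileum Fabp6, the ileal bile acid binding protein, was 13.6 against 0 in the jejunum and was seen in 57 of 57 ileal N cells. It was 78.3 in the other ileal Neurod1-positive barcodes and 0 in the jejunal ones. Krt18, a keratin, was 15.6 in ileal and 2.24 in jejunal N cells, with UMIs in 52 of 57 and 9 of 9. Ier2 and Atf3, immediate early genes, were also higher in the ileum (13.7 against 2.24 and 5.31 against 0.560). The goblet genes Muc2, Zg16, Fcgbp and Clca1 were higher in the ileum in both classes, and 1 ileal N cell held 78.7% of the goblet marker UMIs of the cells of high Pyy described next.

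The ileal N cells were last divided by Pyy, a division chosen after the values were seen. A group of 20 cells exceeded 53.6 for Pyy, 27 had no Pyy UMI, and 10 lay between. The groups also differed in depth, with median UMIs of 14112.5 in the cells of high Pyy and 3528 in those without, so that a missing Pyy UMI is less certain in the latter. Of 250 genes at 5 or more, 55 were at least 3-fold higher in the cells of high Pyy with separate intervals (22%) and 24 in those without Pyy (9.6%). Pyy itself, which made the division, is counted among the genes of the first group, and its place there is no result. In cells of at least 2000 UMIs these counts were 53 and 24. Median UMIs there were still 15137 and 4137, so this setting did not remove the difference in depth.

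Ribosomal protein genes were frequent among the 250 genes considered, and not all of them met the 3-fold rule. Of the 55 genes higher in cells of high Pyy, 25 were ribosomal protein genes, against 0 of the 24 higher in cells without Pyy. All 85 ribosomal protein genes together summed to a median of 519 per cell of high Pyy and 294 per cell without. Mitochondrial genes went the other way (386 and 897). Sct summed to 982 in cells of high Pyy and 316 in those without, and to 1015 and 353, under the 3-fold limit, without the 2 cells of most enterocyte and goblet RNA. Cck was 53.6 and 0.467, although 66.4% of the former came from 1 cell. Id2 and Id3 were 11.6 and 14.1 against 3.81 and 4.20. Vim, an intermediate filament gene, had UMIs in 12 of 20 cells of high Pyy (7.44) and 1 of 27 without (0.0778), and Reg4 in 6 of 20 and 0 of 27. Muc2 was also higher, with 97.0% of its UMIs from 1 cell. Without the same 2 cells Reg4 was 4.84 against 0, under the level limit of 5, and Muc2 was 0.620 against 0.883.

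Rassf9 and Adgrd1, the 2 genes called as higher in N cells above, were higher in the cells without Pyy. Rassf9 was 8.01 there, with UMIs in 20 of 27 cells, and 0.397 in cells of high Pyy, with UMIs in 8 of 20. Adgrd1 was 11.8 against 2.17. Nt5e and Ada, genes of the upper villus in purine breakdown, were 6.15 and 14.3 against 1.48 and 0.361, and Clca4a was 8.56 against 0.0722. Junb and Cdkn1a, also in the villus tip list, were 6.54 and 4.44 in cells without Pyy against 10.9 and 7.51, and the list's 12 genes summed to medians of 82.2 and 71.6 per cell. Apoa1 and Fabp6, products of enterocytes, were 92.4 and 33.7 against 5.38 and 4.51. Enterocyte markers summed to a median of 61.4 per cell without Pyy and 35.0 per cell of high Pyy, and 1 cell held 49.7% of those UMIs in the former group. Without that cell and the cell of most goblet RNA, Rassf9 was 8.57 against 0.426, Adgrd1 12.8 against 2.32, Nt5e 6.36 against 1.51 and Ada 11.3 against 0.310. Apoa1 was then 54.0 against 5.23, Fabp6 38.0 against 4.76, and Clca4a 4.68 against 0.0387, under the level limit of 5. Among all cells without Pyy, 1 cell held 58.2% of the Ada UMIs, and 1 cell held 62.6% of the Fabp6 UMIs. The cells that led Ada and Fabp6 were not among those left out, so both excesses rested largely on single cells. Scg2, Qpct and Cpe were 28.4, 3.75 and 14.8 in cells of high Pyy and 10.5, 1.17 and 7.78 in those without, and Nts was 852 against 1277. The part of depth, ribosomal and mitochondrial RNA in this division was not tested.

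**Figure D5:**
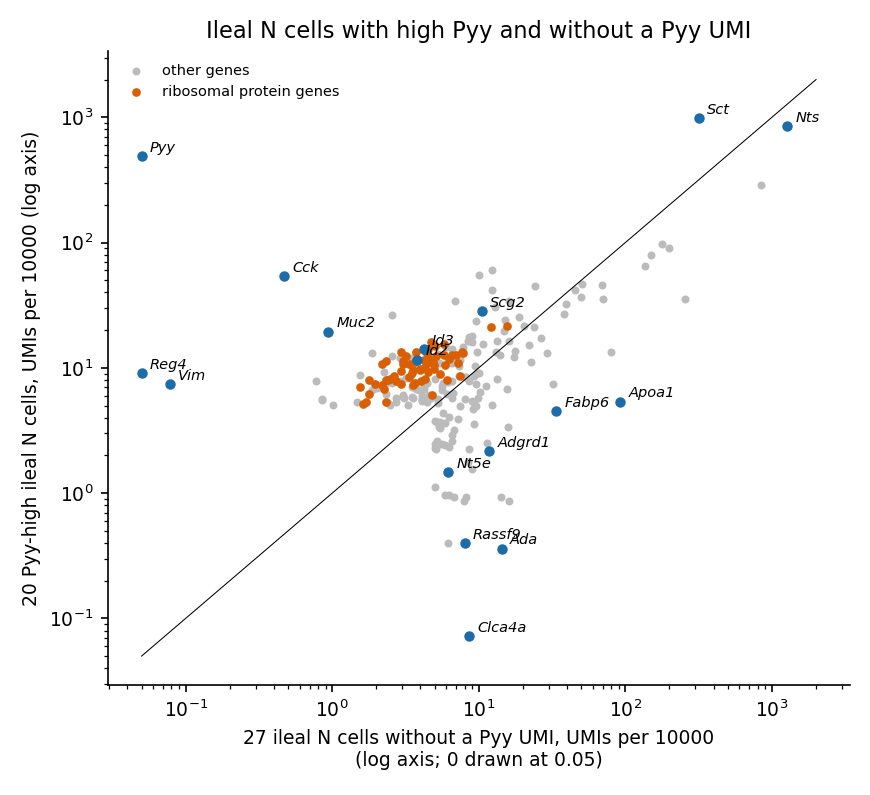
Summed level (UMIs per 10000, log axes) of each gene in the 27 ileal N cells without a Pyy UMI (horizontal) and the 20 with Pyy above 53.6 (vertical), with ribosomal protein genes in orange, named genes in blue and the line of equal levels. Pyy, Cck, Vim and the ribosomal protein genes lie above the line, and Rassf9, Adgrd1, Ada, Clca4a and Apoa1 below it.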

How the data were processed

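The authors aligned and counted the reads with Cell Ranger 3.0.2 on GRCm38 (mm10, per the labels' processing notes) and deposited raw UMI counts, 31053 genes by 9501, 8139 and 9595 barcodes, from 10x 3′ libraries of duodenum, jejunum and ileum. The counts were used as deposited. Barcode limits and marker thresholds followed the study's methods (Nts 4 and Tph1 2.5 on the natural log of 1 plus UMIs per 10000), except that its limit of 200 to 6000 genes was an alternative. No doublet caller was run and no clustering was needed. T cell and enterocyte barcodes were chosen by marker lists, the latter at 1000 or more enterocyte marker UMIs per 10000.

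N cells and comparators were summed per library, and sums of at least 5 barcodes in jejunum and ileum were tested with edgeR 4.0.16 (R 4.3.3, quasi-likelihood, TMM, library as block, Benjamini-Hochberg over all genes tested). DESeq2 1.42.0 was an alternative. Nts, Neurod1 and Chga, and Tph1 against Tph1-high barcodes, were given no test. Named genes were the hormones at 1 or more UMIs per 10000, the 10 of largest log2 fold change in each direction with the same sign in both libraries, members of fixed lists, Vil1 and the genes of the segment comparison. Genes such as Pcsk2, Ntsr1 and the receptors of few UMIs were named from the lists after their values were seen. The members and lists were chosen with earlier results of these data known. Some results of the exocytosis and ion channel lists are not reported here.

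On simulated data with 200 changed genes, the test recovered 10.4%, 76.1% and 93.9% of genes changed by 1, 2 and 3 on the log2 scale against the other Neurod1-positive barcodes (5663 genes, 4 false calls) and 1.49%, 37.3% and 81.8% against the Tph1-high barcodes (2067 genes, 4 false calls). These shares describe the simulated data only, and whether the real sums had the same spread was not tested. In the main fit against the other Neurod1-positive barcodes, Rassf9, Adgrd1 and Pyy had log2 fold changes of 7.94, 4.65 and 3.20. None of them passed (adjusted p = 0.116, 0.226 and 0.226 by edgeR). The lack of calls in that fit therefore cannot be read as a lack of large differences. Promoters came from RefSeq tables on GRCm38 and the coding stretch from GENCODE M21.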

Additional observations from a re-analysis of the deposited data

Results flagged for a closer look

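In 7 of 53 genes checked, N cells differed from the other Neurod1-positive barcodes in opposite directions in jejunum and ileum, with separate Poisson intervals in each. The difference between segments was not tested, since each had 1 library. Levels are UMIs per 10000 in the summed N cells and others. Values are given first for the jejunum and then for the ileum. Gcg was 22.7 against 0.0538 and 1.09 against 124. Chgb was 62.0 against 42.7 and 2.79 against 29.5. Fabp1 was 67.0 against 40.4 and 1.03 against 2.19, and Fabp2 was 59.1 against 41.2 and 32.5 against 127. Of the jejunal Fabp1 UMIs of N cells, 97.6% came from 1 cell. Krt18 was 2.24 against 4.98 and 15.6 against 6.60. Fos was 7.28 against 11.2 and 15.8 against 10.5, and Junb 3.50 against 6.29 and 9.68 against 7.23.

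Some Nts signal lay outside the members. In the ileum 3 barcodes outside the limits on UMIs or mitochondrial share passed the Nts threshold, the highest at 469 Nts UMIs per 10000, and 1 kept ileal barcode without a UMI of Neurod1 or Chga was at 65.8.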

How the results depend on the processing

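No paired analysis was possible because the labels carry no replicate numbers and each segment had 1 library; the library block was part of the fit instead. Counts of calls depended on the processing. Against the other Neurod1-positive barcodes the 0 calls became 1 with relative log expression scaling, 34 with library totals alone, 329 without the filter on low genes, 22 with DESeq2, 4 with Nts removed from library sizes, 6 at 20% mitochondrial UMIs, 3 with both Neurod1 and Chga, 440 with the Nts threshold raised to 107 per 10000, 63 without the 10% richest in enterocyte UMIs, 1 with the duodenal comparator added and no block and 24 with low-Nts comparators. The fits without a block and with 200 to 6000 genes per barcode gave 0. Chosen after seeing the data, both genes without TMM gave 3, and both genes without the 10% richest in enterocyte UMIs gave 6.

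Against Tph1-high barcodes the 0 became 49 with library totals alone, 99 without the filter, 22 with DESeq2, 32 without the block, 47 with both genes, 47 with the raised threshold, 21 without the 10% richest in enterocyte UMIs and 1 with both genes and no TMM, and it was 0 with both genes and without the 10% richest in enterocyte UMIs (these 2 chosen after seeing the data). The limit of 20% mitochondrial UMIs was not run there, since fewer than 5 jejunal barcodes were left. Library totals alone moved the median of all genes to -0.16 and -0.28.

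Of the log2 fold changes recomputed, 716 kept their direction and side, 247 passed the threshold anew and 15 changed sign. Gcg turned to -0.036 with library totals, -0.16 without filter, -2.16 without block, -0.85 with both genes, -0.55 at the raised threshold, -1.95 with the duodenum added and no block, -1.03 and -0.98 in the 2 settings added later, and -6.64 without the jejunum (7.98 without the ileum). Ghrl turned to 0.38 without block and 0.39 without the ileum (-0.59 without the jejunum). Vil1 turned to 0.79 with both genes, 0.58 with both genes and no TMM, and 0.90 with both genes and fewer enterocyte UMIs. Against Tph1-high barcodes it turned to -0.0030 with both genes and no TMM. The cause was not tested.

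The share of N cells moved to 9.09% in the jejunum at 20% mitochondrial UMIs, to 40.9% and 53.3% in jejunum and ileum with both genes, and to 13.8% and 30.1% after thinning. Leaving out the jejunal cell of most UMIs, chosen after seeing the data, moved the genes higher in the jejunum from 37 to 11.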
